A study of Arabidopsis thaliana with 12 samples.

Results

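The cytosolic ribosome of Arabidopsis thaliana has a large and a small subunit, each with many different proteins, and almost every one of those proteins is encoded by several nuclear genes, its paralogs. The genes described here are 58 of these, coding for 27 proteins, 34 genes for the large subunit and 24 for the small one, among 32833 gene entries of the count table. They were chosen from earlier results on the same libraries, because ribosomal genes were lower in the mutant, so their levels in the mutant against the wild type are a description and carry no test here. For 22 of the 27 proteins 2 or 3 paralogs are listed, and L13a, L13, S2, S10 and S14 are represented by 1 gene each. The reference annotation held all 58 loci, and no product name there went against the protein named here.

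Cytosolic ribosomes translate nuclear messages. The proteins of the large subunit shape the peptide exit tunnel and the sites where transfer RNA and the GTP-using factors dock, and those of the small subunit line the path of the messenger RNA. In dry seeds, part of the ribosomes and messages made during maturation is stored and used again when water is taken up. In Arabidopsis, many promoters of these genes carry site II elements and telo boxes, short sequence elements that were described in genes of growing tissue.

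RNA was taken from mature seeds of Col-0, the wild type, and of Atsdr4l-5 dig2, a double mutant whose lesions are not described in the sources used here. Seeds were harvested about 18 days after pollination from plants in days of 16 h light and 8 h dark, left dry for 2 days and wetted for 1 to 2 h, after which embryos were dissected from the rest. What is called the seed coat here is the seed coat together with the endosperm inside it. There were thus 4 groups (each genotype with its embryos and its seed coats), with 3 libraries described as biological replicates in each. What makes a replicate beyond that was not stated, so p-values measure the spread between these libraries.

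Libraries held 10301817 to 17619031 reads on genes. Levels are given as CPM, the counts of a gene relative to all gene counts of its library, after scaling the library sizes by TMM (a method that sets the typical gene equal between libraries), and changes as log2 ratios from edgeR, in which -1 is a halving. Dissection was checked on markers. EPR1 (AT2G27380), a wall protein gene of the endosperm, had 182 ± 12.5 CPM in Col-0 embryos and 154200.0 ± 16840.0 CPM in the seed coats (SD, n = 3), while 8 of 10 tested embryo markers were lower in Col-0 seed coat than in embryo and 2 were higher. Of 3 tested endosperm markers 2 were higher in Col-0 seed coat, EPR1 and NCED6 (AT3G24220, 0.708 and 2.12 CPM in embryo and seed coat). In the mutant NCED6 had 20.8 CPM in embryo and 12.65 CPM in seed coat. AGL62 (AT5G60440) was level in Col-0, at 1.69 and 1.65 CPM. Of 7 tested seed coat markers 2 were higher in Col-0 seed coat and 5 were not called. Of the 2 mutated genes, DIG2 (AT5G50360) kept 115 to 144 CPM in mutant embryo against 76.3 to 194 CPM in Col-0 embryo, so its level does not check the labels, and AtSDR4L was not matched to a locus here.

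The 300 bases around the annotated start of each gene (250 before, 50 after; RefSeq, build TAIR10.1) were searched on both strands for site II elements, spelled TGGGCC or TGGGCT, and for the telo box, spelled AAACCCTA, with overlapping matches of the same motif counted once. Site II occurred in 47 of the 58 promoters (81%), against 21.7% of 27443 promoters of the annotation. The telo box occurred in 29 of 58 (50%), against 6.22%. Both were present in 23 members (39.7%, against 2.2%), and 40 members (69%) had 2 or more site II matches, against 13.4%. Among 161 other cytosolic ribosomal protein genes, 73.9% had site II and 47.2% the telo box. The elements sat near the start: the median first base of the 115 site II matches lay 43 bases before the annotated start, and that of the 33 telo boxes 2 bases after it. The telo box was in 15 of 24 promoters of the small subunit (62.5%) and 14 of 34 of the large subunit (41.2%).

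Neither motif was found in 5 members: AT1G74050 (L6), AT3G13580 (L7), AT2G39460 (RPL23AA), AT2G37270 (RPS5B) and AT4G00100 (RPS13A). Each of these has a listed paralog with at least 1 of the motifs, and in 16 of the 22 families with several paralogs the paralogs differed in which motifs they hold. Promoters of 7 genes of L6, S5 and L12 are printed below, since these families hold AT1G18540, RPS5B and AT5G60670, whose values stood apart from those of their paralogs (a choice made after the values were seen). They run 5′ to 3′ on the strand of the gene, with site II and telo box matches in capitals.

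AT1G18540 (L6; chr1:6378531-6378830, minus strand; 3 site II, 1 telo box): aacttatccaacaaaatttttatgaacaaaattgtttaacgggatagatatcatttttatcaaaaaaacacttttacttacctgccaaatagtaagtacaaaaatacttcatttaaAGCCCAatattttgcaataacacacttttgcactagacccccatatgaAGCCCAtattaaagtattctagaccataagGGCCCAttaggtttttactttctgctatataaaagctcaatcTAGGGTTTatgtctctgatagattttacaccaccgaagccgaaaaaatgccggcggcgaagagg
AT1G74050 (L6; chr1:27848959-27849258, minus strand; neither motif): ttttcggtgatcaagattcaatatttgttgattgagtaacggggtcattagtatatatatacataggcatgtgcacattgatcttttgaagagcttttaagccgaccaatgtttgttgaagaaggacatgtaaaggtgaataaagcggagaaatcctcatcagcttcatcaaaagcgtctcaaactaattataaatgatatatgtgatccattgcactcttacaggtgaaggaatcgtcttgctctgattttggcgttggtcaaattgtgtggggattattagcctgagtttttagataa
AT3G11940 (RPS5A; chr3:3779496-3779795, minus strand; 2 site II, 2 telo boxes): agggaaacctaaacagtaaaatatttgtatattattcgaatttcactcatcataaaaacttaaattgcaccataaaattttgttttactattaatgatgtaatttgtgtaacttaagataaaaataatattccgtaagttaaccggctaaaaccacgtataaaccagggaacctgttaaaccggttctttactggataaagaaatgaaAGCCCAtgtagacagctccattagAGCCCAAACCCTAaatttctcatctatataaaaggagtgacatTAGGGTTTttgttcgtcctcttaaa
AT2G37270 (RPS5B; chr2:15649422-15649721, minus strand; neither motif): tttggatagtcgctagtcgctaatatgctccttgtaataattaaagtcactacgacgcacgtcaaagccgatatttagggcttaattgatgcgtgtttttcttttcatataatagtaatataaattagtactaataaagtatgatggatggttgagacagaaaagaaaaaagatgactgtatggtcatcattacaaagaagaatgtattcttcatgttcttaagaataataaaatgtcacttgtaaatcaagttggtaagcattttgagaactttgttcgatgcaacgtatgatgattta
AT3G53430 (L12; chr3:19810471-19810770, minus strand; 2 site II, 1 telo box): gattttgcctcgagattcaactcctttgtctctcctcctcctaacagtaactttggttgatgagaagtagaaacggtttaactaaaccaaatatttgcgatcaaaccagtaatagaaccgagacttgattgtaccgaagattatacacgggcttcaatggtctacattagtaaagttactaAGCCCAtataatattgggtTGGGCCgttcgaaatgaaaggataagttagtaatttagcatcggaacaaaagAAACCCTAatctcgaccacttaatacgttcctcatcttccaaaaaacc
AT2G37190 (L12; chr2:15620107-15620406, minus strand; 2 site II, 1 telo box): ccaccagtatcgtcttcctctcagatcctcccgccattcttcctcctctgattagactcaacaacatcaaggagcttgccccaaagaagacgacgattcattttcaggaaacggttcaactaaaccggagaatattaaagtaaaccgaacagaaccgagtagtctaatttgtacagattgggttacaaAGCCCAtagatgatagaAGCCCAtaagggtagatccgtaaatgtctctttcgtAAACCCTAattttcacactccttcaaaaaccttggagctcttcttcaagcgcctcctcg
AT5G60670 (L12; chr5:24381550-24381849, minus strand; 2 telo boxes and no site II): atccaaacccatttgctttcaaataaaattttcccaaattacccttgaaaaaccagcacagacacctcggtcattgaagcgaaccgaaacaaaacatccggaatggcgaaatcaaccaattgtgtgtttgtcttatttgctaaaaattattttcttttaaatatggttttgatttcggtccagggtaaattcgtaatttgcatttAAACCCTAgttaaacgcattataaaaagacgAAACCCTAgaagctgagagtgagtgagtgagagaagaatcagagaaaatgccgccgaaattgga

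**Figure D1:**
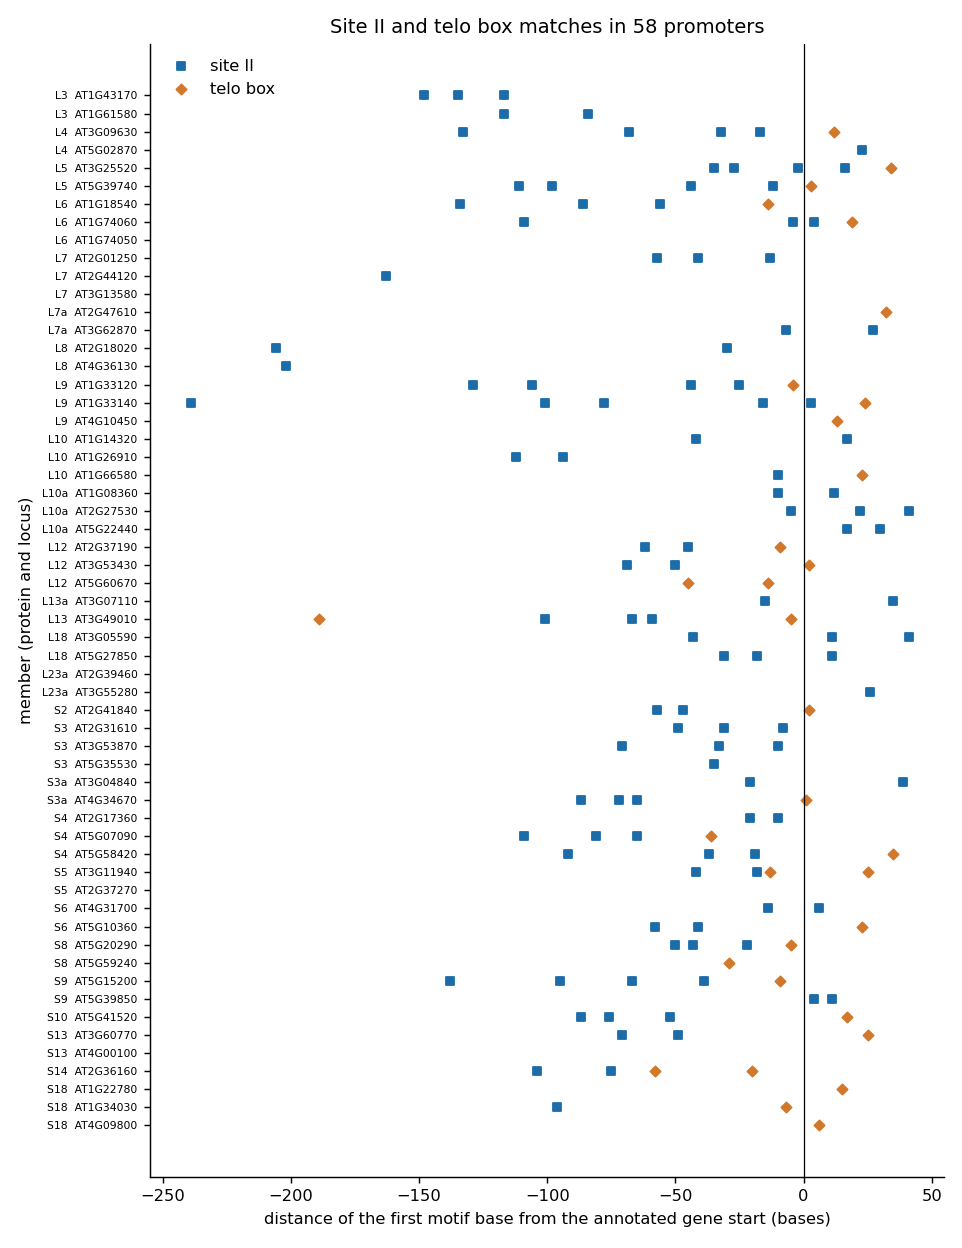
Position of site II (squares) and telo box (diamonds) matches in the promoters of the 58 members, as the distance in bases of the first motif base from the annotated gene start (vertical line). Site II matches lie mostly before the start (95 of 115) and telo boxes close to it on either side, and the rows of 5 members are empty.

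As a group the members took a larger share of all gene reads in Col-0 embryo than in any other group, and the smallest share in mutant seed coat. They held 0.709%, 0.660% and 0.620% of gene reads in the embryos of Col-0 and 0.342%, 0.348% and 0.319% in those of the mutant. Seed coat libraries stood at 0.415%, 0.403% and 0.381% for Col-0, and 0.213%, 0.201% and 0.230% for the mutant. The libraries of the 4 groups do not overlap. Seed coat lay 0.192 percentage points below embryo on average over both genotypes (exact two-sided permutation test within genotypes, p = 0.005, the smallest p that 400 arrangements allow). No label says that same-numbered libraries of a genotype are pairs. Taken as such, p was 0.0312, the smallest that the exact sign-flip test allows. The same libraries chose the members, for lower levels in the mutant than in Col-0. For the 161 other cytosolic ribosomal protein genes the seed coat minus embryo difference was -0.255 percentage points (exact permutation test, p = 0.005). The lower share in the seed coat was thus not particular to the members. By subunit, the large-subunit members held 0.393 ± 0.0286% in embryos of Col-0 and 0.201 ± 0.00947% in embryos of the mutant (SD, n = 3), and the small-subunit members 0.2702 ± 0.01597% and 0.135 ± 0.00571%. These shares depend on what else is in a library, and EPR1 alone stood at about the level given above in the seed coat; without the 100 most abundant genes, none of them a member, the embryo shares were 1.06% in Col-0 and 0.587% in the mutant, and those of the seed coat 0.735% and 0.453%. In whole tissue, fewer cells of a type and less RNA per cell cannot be told apart.

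**Figure D2:**
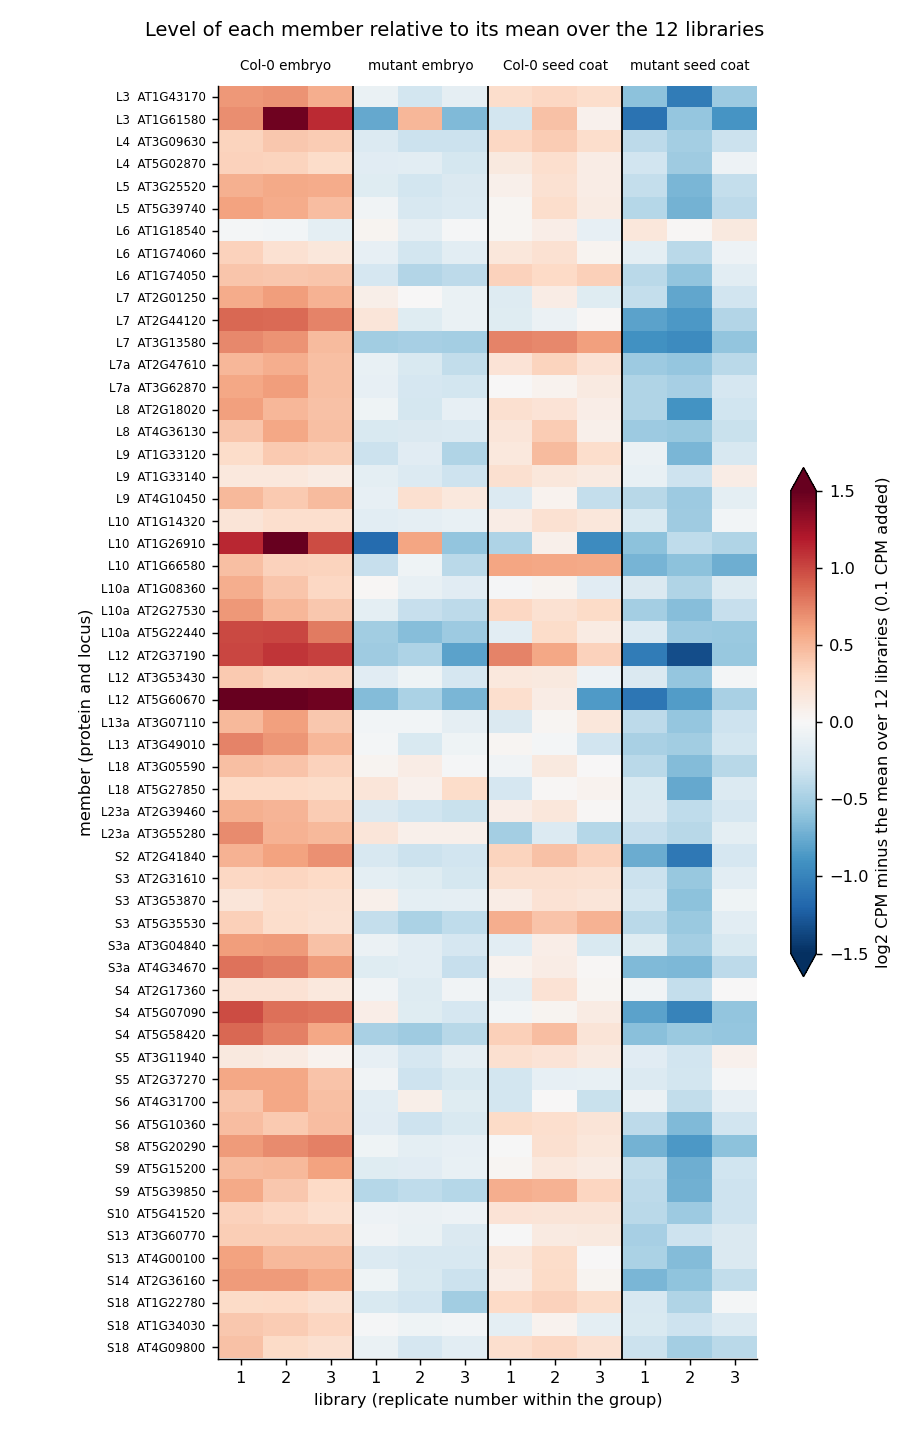
Log2 CPM of the 57 members with enough reads, each relative to its own mean over the 12 libraries (0.1 CPM added; colours end at 1.5 either way). Rows are members, columns the 3 libraries of each group; Col-0 embryo is the highest block for most rows and mutant seed coat the lowest, and the row of AT1G18540 (L6) is nearly flat.

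Levels between genes were compared per kb of exon. The highest large-subunit members in Col-0 embryo were RPL10C (AT1G66580, also named SAG24), 1 of 3 genes for L10, a protein that joins the large subunit late in its assembly, with 209 ± 9.04 CPM per kb, and AT3G09630, a gene for L4, a protein of the exit tunnel wall, with 142 ± 3.44 CPM per kb (SD, n = 3). For the small subunit they were AT5G20290, the main gene of S8, with 188 ± 7.75 CPM per kb and AT3G53870, a gene of S3, a protein at the messenger RNA entry, with 128 ± 3.53 CPM per kb. At the other end, AT1G26910 (RPL10B) had 1.36 ± 0.476 CPM per kb, and AT5G59240, the second S8 gene, had 1 read in all Col-0 embryo libraries, 1 in all mutant embryo libraries and 0 in the 6 seed coat libraries, so it was the only member with too few reads to be tested. A library with 0 reads allows up to 3 reads, by counting error alone. RPL10B had 81 reads in Col-0 embryo, 20 in mutant embryo, and 14 and 11 in the seed coats of Col-0 and the mutant. Its place among the tested members thus rests on Col-0 embryo, the group where it is high.

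These 4 abundant genes were all lower in the mutant. RPL10C stood at 253, 236 and 234 CPM in the embryos of Col-0 and 146, 177 and 139.8 CPM in those of the mutant. It had 279, 276 and 274 CPM in the seed coats of Col-0 and 114, 121 and 112 CPM in those of the mutant, so that neither pair of groups overlaps. AT3G09630 (L4) had 227, 238 and 234 CPM in the embryos of Col-0 and 156, 144 and 144 CPM in those of the mutant, and 224, 235 and 216 CPM in the seed coats of Col-0 and 137, 126 and 144 CPM in those of the mutant. The gene for S8, AT5G20290, had 200.5, 210.5 and 218 CPM in the embryos of Col-0 and 123, 116 and 118 CPM in those of the mutant, and 128, 151 and 145 CPM in the seed coats of Col-0 and 78.2, 70.6 and 84.1 CPM in those of the mutant. For AT3G53870 (S3) the values were 137, 144 and 144 CPM in the embryos of Col-0 and 128, 109.5 and 110.4 CPM in those of the mutant, and 130.5, 141 and 137 CPM in the seed coats of Col-0 and 99.7, 78.95 and 116 CPM in those of the mutant. Its mutant libraries lay below the Col-0 ones in both tissues, with a smaller gap than for the other 3 genes.

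In the embryo, 56 of 57 tested members had a log2 change below 0 in the mutant. The median was -0.68, a 1.60-fold lower level, beside 0.00 over all genes tested, and the quartiles of the members were -0.81 and -0.50. At an adjusted p under 0.05, 53 of 57 were lower and 0 were higher; over all 16238 genes tested, 21.4% were lower and 25.4% higher. Of the same 57, 53 had a log2 below 0 in the seed coat, with a median of -0.58 and quartiles of -0.73 and -0.34, and 46 were lower and 0 higher, against 23.5% and 24.8% of all genes. Nothing is read from these counts, since the same contrasts chose the members. Tissue markers moved with genotype as well. Of 10 tested embryo markers 6 were lower and 2 higher in mutant embryo, and 5 lower and 1 higher in mutant seed coat. Summed over all 13 listed embryo markers, the level was 122 to 131 CPM in Col-0 embryo and 112 to 119 CPM in mutant embryo. It was 182 to 199 CPM and 142 to 159 CPM in the seed coats. Much of it was ATML1 (AT4G21750), with 37.6 and 50.1 CPM in Col-0 and mutant embryo, and 124 and 103 CPM in the seed coats. ATML1 and WOX2 (AT5G59340) were the markers higher in Col-0 seed coat. Of 3 tested endosperm markers 2 were higher in mutant seed coat and 1 in mutant embryo, and of 7 tested seed coat markers 2 were higher in each tissue of the mutant and 1 was lower in its embryo. The part of these markers in the values of the members was not tested. The Col-0 and mutant libraries of 55 members did not overlap in embryos, nor did those of 45 in seed coats, while this was so for 57.3% and 55.5% of all genes. Scaling by total gene reads alone, which puts the median of all genes at -0.35 for embryos and -0.30 for seed coats, gave medians of -1.03 and -0.88 for the members.

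**Figure D3:**
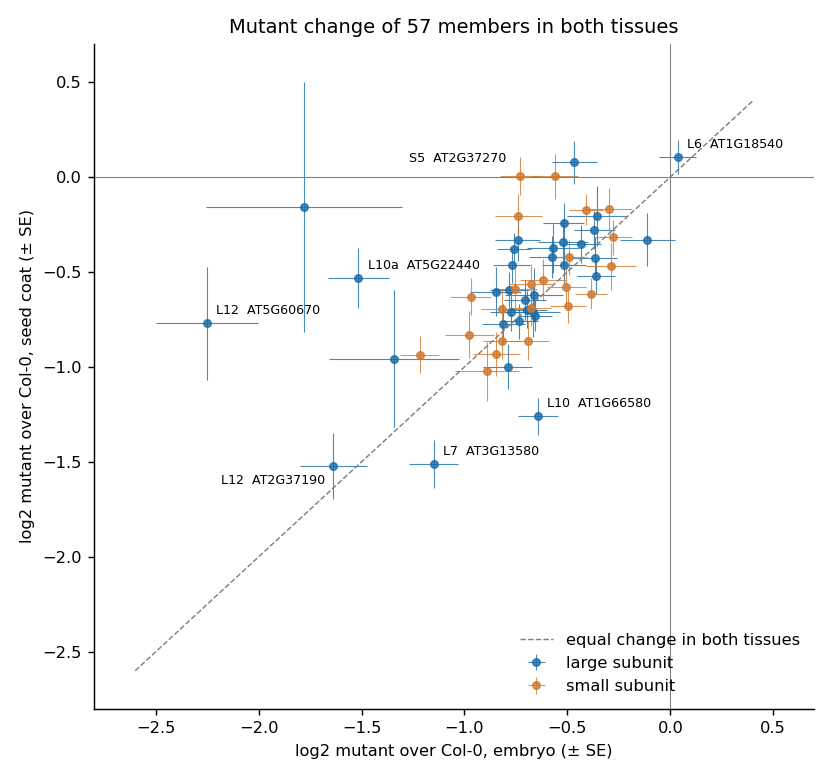
Log2 ratio of mutant to Col-0 in the embryo (horizontal) and in the seed coat (vertical) for the 57 tested members, with SE bars, large-subunit genes in blue and small-subunit genes in orange. The cloud is centred near the medians of -0.68 and -0.58; AT5G60670 and AT5G22440 lie farther to the left than down, and RPL10C (AT1G66580) farther down than left.

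Members with a mean of 5 CPM or more in at least 1 group were ranked by their decrease. In the embryo, the 4 largest decreases among them were those of paralogs that do not lead their family. AT5G60670 met the cut through Col-0 embryo alone, where it is high, so the cut favours its large decrease. AT5G60670, the least abundant of 3 genes for L12, a protein at the base of the stalk where GTP-using factors bind, had 6.47, 7.31 and 6.08 CPM in the embryos of Col-0 and 1.34, 1.53 and 1.298 CPM in those of the mutant. It had 2.598, 2.34 and 1.15 CPM in the seed coats of Col-0 and 0.963, 1.16 and 1.51 CPM in those of the mutant. The mutant embryo stood at a log2 of -2.25 (± 0.25, SE), 4.75-fold below Col-0, and Col-0 embryo was the only group in which the gene passed 3 CPM. A second L12 gene, AT2G37190, had 32.4, 33.99 and 32.9 CPM in the embryos of Col-0 and 11.1, 11.6 and 9.204 CPM in those of the mutant, and 26.98, 24.1 and 20.4 CPM in the seed coats of Col-0 and 7.71, 6.33 and 10.8 CPM in those of the mutant. It was the member with the largest decrease in the seed coat, -1.52 ± 0.17, after -1.64 ± 0.16 in the embryo. The leading L12 gene, AT3G53430, was at -0.52 and -0.34. The share of AT3G53430 in the L12 level per kb was 53.8 ± 1.32% in the embryo of Col-0, 72.7 ± 1.24% in that of the mutant, and 59.4 ± 1.81% and 76.04 ± 2.03% in the seed coat (SD, n = 3).

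AT5G22440, the least abundant gene for L10a, had 13.4, 13.5 and 11.6 CPM in the embryos of Col-0 and 4.65, 4.25 and 4.54 CPM in those of the mutant. It had 5.996, 8.14 and 7.33 CPM in the seed coats of Col-0 and 5.78, 4.54 and 4.53 CPM in those of the mutant. In the embryo the decrease was -1.51 ± 0.15, and in the seed coat -0.53 ± 0.16, where the lowest Col-0 library came near the highest mutant one. RPL3B (AT1G61580), the minor gene of L3, a protein near the peptide-joining centre, had 8.97, 15.2 and 12.1 CPM in the embryos of Col-0 and 3.19, 7.77 and 3.42 CPM in those of the mutant, with the second mutant library well above the other 2. The gene had 4.53, 7.46 and 5.76 CPM in the seed coats of Col-0 and 2.505, 3.65 and 2.94 CPM in those of the mutant.

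Other large decreases in the seed coat concerned L7, L10 and S2. AT3G13580, the least abundant L7 gene, had 16.6, 16.03 and 13.9 CPM in the embryos of Col-0 and 6.94, 7.04 and 6.96 CPM in those of the mutant, and 16.9, 16.6 and 15.4 CPM in the seed coats of Col-0 and 5.298, 5.17 and 6.62 CPM in those of the mutant. Its mutant and Col-0 libraries were apart in both tissues, at -1.15 and -1.51 on the log2 scale. AT2G41840, the listed gene for S2, had 138, 146 and 154 CPM in the embryos of Col-0 and 80.8, 76.8 and 78.2 CPM in those of the mutant, and 120.3, 130.2 and 122 CPM in the seed coats of Col-0 and 57.2, 45.5 and 80.2 CPM in those of the mutant, with mutant seed coat libraries that spread more than those of the other groups. Its exons overlap those of AT2G41835 on the same strand, where reads of the 2 genes cannot be told apart.

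A few members were not lower in the mutant in 1 or both tissues. AT1G18540, a gene for L6, was at log2 0.04 in embryos, 0.11 in seed coats. Its levels were 88.7, 88.1 and 81.5 CPM in the embryos of Col-0 and 92.9, 82.1 and 89.6 CPM in those of the mutant, and 92.2, 97.05 and 83.3 CPM in the seed coats of Col-0 and 102, 91.3 and 100.5 CPM in those of the mutant. The 2 genotypes overlap in both tissues. Of 57 members it was the only one whose log2 CPM ran against the mean of the members over the 12 libraries, with a Pearson r of -0.43, while the next lowest r was 0.66 and AT4G00100 and AT3G25520 reached 0.99 (a description over libraries of 4 groups).

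For 3 members this was so in the seed coat alone. RPL23AB (AT3G55280) codes for L23a, a protein at the mouth of the exit tunnel. It had 28.9, 25.5 and 24.9 CPM in the embryos of Col-0 and 20.04, 18.7 and 18.7 CPM in those of the mutant, and 12.4, 15.4 and 13.1 CPM in the seed coats of Col-0 and 13.9, 13.3 and 15.9 CPM in those of the mutant. RPS5B (AT2G37270) codes for S5, a protein of the small subunit's head, and had 45.8, 45.8 and 41.2 CPM in the embryos of Col-0 and 29.4, 24.6 and 26.1 CPM in those of the mutant, and 25.3, 28.1 and 28.3 CPM in the seed coats of Col-0 and 26.6, 25.1 and 30.1 CPM in those of the mutant. For RPS6 (AT4G31700), 1 of 2 genes for S6, the ribosomal protein that S6 kinases phosphorylate, the levels were 60.5, 67.9 and 62.2 CPM in the embryos of Col-0 and 40.8, 48.4 and 39.9 CPM in those of the mutant, and 37.6, 45.5 and 36.01 CPM in the seed coats of Col-0 and 42.7, 35.2 and 41.6 CPM in those of the mutant. In these 3 genes the mutant embryo lay below the Col-0 embryo in all libraries, and the seed coat libraries of the 2 genotypes overlapped, with log2 values of 0.08, 0.01 and 0.00.

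Sums over the listed paralogs of a protein can vary less than single genes by construction, and the values here come from the contrast that chose the members, so they are a description. Over the 22 families with several listed paralogs, the log2 of mutant over Col-0 for the family sum ran from -0.96 (L12) to -0.26 (L18) in the embryo, with an SD of 0.17 between families, while the 52 tested genes of these families ran from -2.25 to 0.04 with an SD of 0.41. For seed coats the family sums ran from -0.998 (L3) to -0.20 (L23a), with an SD of 0.20, and the genes from -1.52 to 0.11, with an SD of 0.35. Leading paralogs (highest per kb in Col-0 embryo) had a median of -0.67 in the embryo and the 30 other paralogs -0.69, with SDs of 0.20 and 0.50 among them.

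The difference of the mutant effect between the tissues was tested as an interaction in edgeR. It is the difference of the mutant effects on which the members were chosen, in the same libraries. Its p-values carry that limit and are given as a description of these members. Of 57 members, 3 (5.26%) had a higher value in the seed coat and 1 (1.75%) a lower one. Over all genes tested the shares were 2.02% and 3.72%, so nothing is read from these counts. RPS5B (AT2G37270) stood at -0.73 in embryos, 0.01 in seed coats, a difference of 0.73 ± 0.14 (adjusted p = 0.0109). AT5G22440 (L10a) differed by 0.98 ± 0.22 (adjusted p = 0.0196; 0.0522 without mutant seed coat 1) and AT5G60670 (L12) by 1.48 ± 0.39 (adjusted p = 0.0459), each lower in the mutant mainly in the embryo. RPL10C (AT1G66580) was the reverse case, with -0.64 in embryos, -1.26 in seed coats, a difference of -0.62 ± 0.14 (adjusted p = 0.0196).

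With same-numbered embryo and seed coat libraries of a genotype as a block, 8 members were higher and 1 lower, against 5.14% and 10.7% of all genes; the added ones were AT3G04840 (S3a, 0.53), RPS6 (AT4G31700, 0.57), AT3G49010 (BBC1, L13, 0.41), RPL23AB (AT3G55280, 0.55) and RPL23AA (AT2G39460, 0.38). The call of AT5G60670 had an adjusted p of 0.0510 to 0.128 without any single one of 11 of the 12 libraries, and that of RPL10C 0.0503 to 0.0637 without mutant embryo 1, mutant seed coat 1 or mutant seed coat 3.

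Seed coat against embryo is not the contrast that chose the members, but it is built from the same 12 libraries. In Col-0, 33 of 57 members were lower in the seed coat and 0 higher, against 22.2% lower and 24.4% higher over all genes tested. The median log2 was -0.35, beside 0.01 over all genes. In the mutant, 19 of 57 were lower and 0 higher, against 18% and 16.9% of all genes, with a median of -0.21 beside -0.01. Blocking on these pairs gave 37 lower and 2 higher in Col-0, the higher ones being AT5G35530 (S3, 0.22, adjusted p = 0.02997) and RPL10C (0.20, adjusted p = 0.0313), and 26 lower in the mutant. Over all genes the blocked fit called 26.4% lower and 30.4% higher in Col-0 and 22.4% lower in the mutant. The count in the mutant fell from 19 to 9 without mutant embryo 1, to 9 without mutant seed coat 1 and to 7 without mutant seed coat 2. The share of all genes called in these fits is not given here, so these lower counts have no background beside them. The endosperm marker list moved with tissue: 3 of its 9 genes were tested and 2 rose in Col-0 seed coat, and their summed level was 174 to 199 CPM in Col-0 embryos and 134800 to 164600 CPM in the seed coats, nearly all of it EPR1. In the mutant the sums were 137 to 250.1 CPM and 184200 to 202100 CPM. Of 7 tested seed coat markers 2 rose in Col-0 seed coat, BAN (AT1G61720) and TT10 (AT5G48100), which had 0 reads in Col-0 embryos. The part of the tissue makeup in the values of the members was not tested. Scaling by total gene reads, which moves the median of all genes to -0.46 in Col-0 and -0.43 in the mutant, gave 56 and 54 lower, against 52.9% and 50.3% of all genes.

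**Figure D4:**
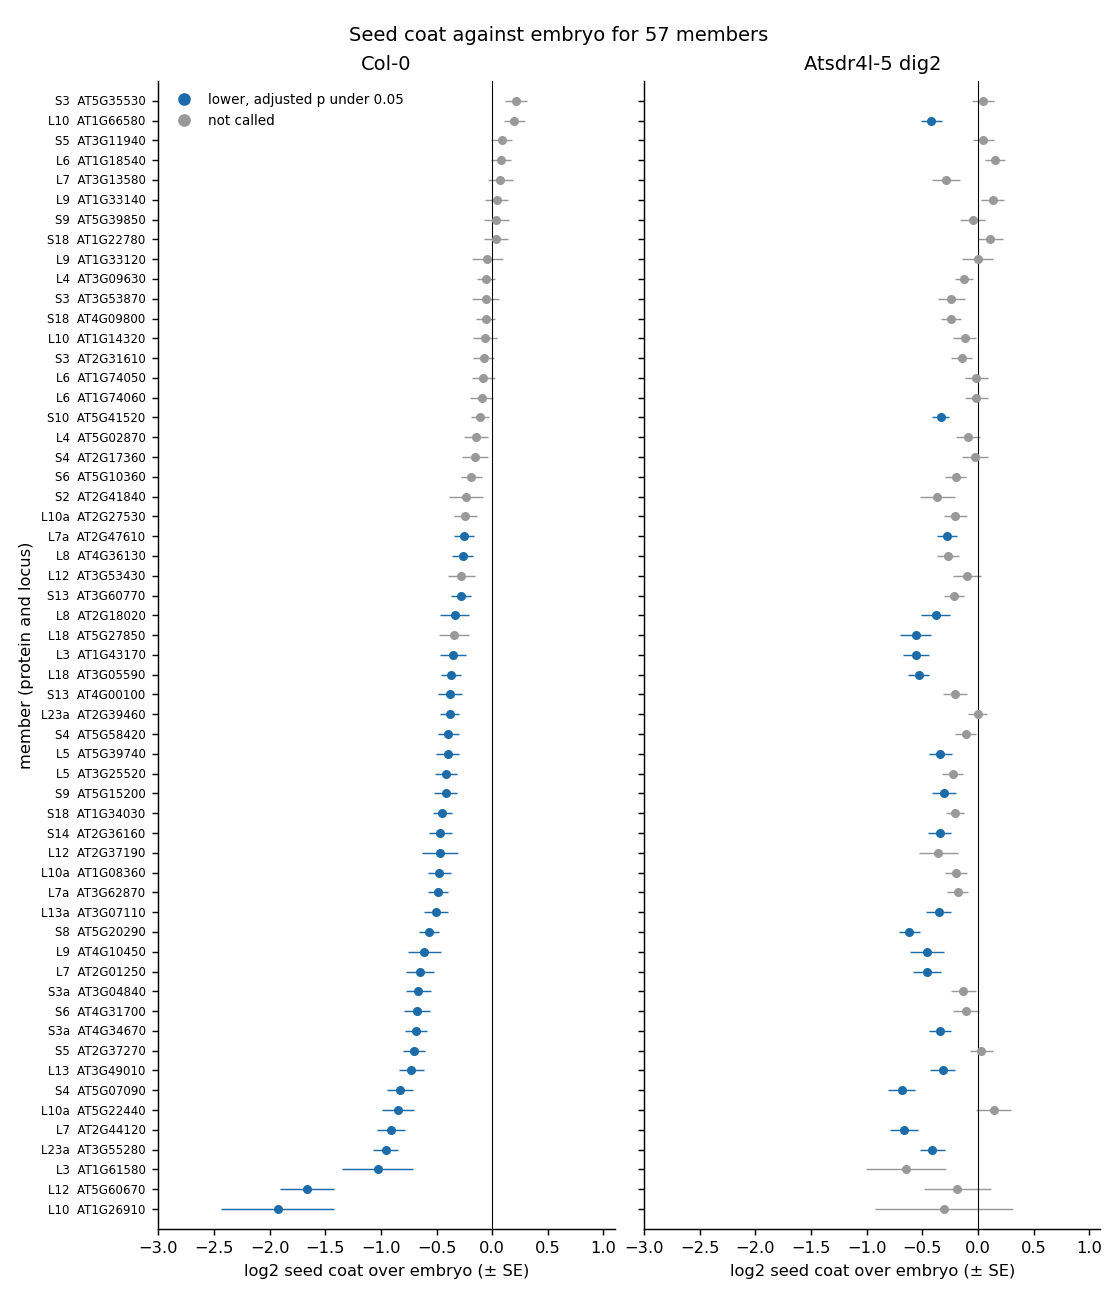
Log2 ratio of seed coat to embryo with SE for the 57 tested members in Col-0 (left) and the mutant (right), in the order of the Col-0 values; blue points had an adjusted p under 0.05. In Col-0 33 members and in the mutant 19 are blue, and RPL10C (AT1G66580) is near the top on the left and blue on the right.

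The smallest adjusted p-values for a lower level in Col-0 seed coat belonged to RPL23AB (AT3G55280), AT2G44120 (L7), RPS5B (AT2G37270) and AT4G34670 (S3a). RPL23AB fell from 28.9, 25.5 and 24.9 CPM in embryo to 12.4, 15.4 and 13.1 CPM in seed coat, a log2 of -0.96 ± 0.11 (adjusted p = 2.5e-05), and in the mutant by -0.41 (adjusted p = 0.0125). AT2G44120 fell from 55.2, 55.01 and 50.96 CPM to 26.9, 28.5 and 30.8 CPM, -0.91 ± 0.13 on the log2 scale (adjusted p = 1.02e-04). In the mutant this L7 gene had 34.4, 26.8 and 28.3 CPM in embryo and 17.3, 16.7 and 22.5 CPM in seed coat, a log2 of -0.66 (adjusted p = 0.00161), so it fell in both genotypes.

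AT4G34670, the leading gene for S3a, had 146, 141 and 128 CPM in Col-0 embryo and 85.5, 88.7 and 83.6 CPM in Col-0 seed coat, a log2 of -0.68 ± 0.10 (adjusted p = 1.34e-04). Its mutant values were 72.9, 73.8 and 64.5 CPM in embryo and 52.2, 51.6 and 62.8 CPM in seed coat (-0.34, adjusted p = 0.0171). RPS5B, with the values given above, fell by 0.70 in Col-0 (adjusted p = 1.34e-04) and stood at 0.03 in the mutant (adjusted p = 0.848).

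No member was called higher in Col-0 seed coat without the block. Those nearest to a call were AT5G35530 (S3), RPL10C, RPS5A (AT3G11940, the major S5 gene) and AT1G18540 (L6), at 0.22, 0.20, 0.09 and 0.08 on the log2 scale with adjusted p-values of 0.0966, 0.105, 0.475 and 0.496. All 4 turned below 0 when libraries were scaled by total reads alone. AT5G35530 had 111, 103 and 101 CPM in the embryos of Col-0 and 67.1, 61.8 and 66.1 CPM in those of the mutant, and 126, 116 and 124 CPM in the seed coats of Col-0 and 65.1, 58.5 and 77.3 CPM in those of the mutant. RPS5A had 92.9, 91.96 and 87.6 CPM in the embryos of Col-0 and 77.1, 70.6 and 76.5 CPM in those of the mutant, and 99.6, 97.4 and 92.2 CPM in the seed coats of Col-0 and 74.8, 69.2 and 87.96 CPM in those of the mutant. In the mutant, RPL10C fell in the seed coat (-0.42, adjusted p = 0.00491).

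Some paralogs of the same protein changed their proportions between the tissues. For each of 39 ratios of a paralog to its other listed paralogs, per kb and with 0.5 reads added, the seed coat was compared with the embryo by an exact two-sided permutation test within genotypes, adjusted over the 39 ratios. Of these, 14 had an adjusted p under 0.05, and 7 of the 14 had an exact permutation p of 0.005, the smallest possible. Ratios of the same family share their reads and are not independent. With the sign-flip test over the 6 pairs, whose smallest p is 0.0312, 10 ratios had an unadjusted p under 0.05, and 0 passed the adjustment, where the smallest adjusted p was 0.122.

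AT5G07090, 1 of 3 genes for S4, had a smaller share in the seed coat. Its part of the S4 level was 23.03, 21.8 and 22.6% in the Col-0 embryo libraries and 16.5, 14.8 and 17.7% in Col-0 seed coat. In the mutant it was 20.2, 18.4 and 16.4% in embryo and 12.2, 12.2 and 13.4% in seed coat. The log2 ratio fell by 0.60 (adjusted p = 0.0279, exact permutation test), in 6 of 6 pairs. AT5G07090 had 67.2, 60.8 and 59.4 CPM in the embryos of Col-0 and 36.6, 30.01 and 28.6 CPM in those of the mutant, and 33.3, 35.1 and 37.2 CPM in the seed coats of Col-0 and 19.6, 17.02 and 22.6 CPM in those of the mutant. The leading S4 gene, AT2G17360, had a ratio that rose by 0.35 (adjusted p = 0.0279, exact permutation test).

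AT4G10450, the minor gene for L9, held 6.51, 5.92 and 6.36% of the L9 level in Col-0 embryo and 4.08, 4.61 and 3.74% in Col-0 seed coat, and 5.71, 7.17 and 7.57% and 4.39, 5.02 and 4.93% in the mutant. The ratio fell by 0.58 (adjusted p = 0.0279, exact permutation test), in 6 of 6 pairs. Its level was 12.1, 11.3 and 11.99 CPM in the embryos of Col-0 and 7.89, 10.2 and 9.62 CPM in those of the mutant, and 7.46, 8.97 and 6.699 CPM in the seed coats of Col-0 and 6.45, 5.88 and 7.798 CPM in those of the mutant. The other L9 genes, AT1G33120 and PGY2 (AT1G33140), share a messenger stretch of 565 identical bases and only 49.2% and 48.3% of their 100-base stretches differ. Reads of the shared stretches cannot be told apart, so each count is uncertain. The L9 shares of AT4G10450 are taken over these counts and would be too high where such reads were lost.

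For L23a, RPL23AA (AT2G39460) held 54.6, 57.2 and 55.6% in Col-0 embryo and 67.4, 63.6 and 64.97% in Col-0 seed coat, against 50.7, 51.1 and 50.4% and 59.7, 57.99 and 55.8% in the mutant. The ratio to RPL23AB rose by 0.49 in the seed coat (adjusted p = 0.0279, exact permutation test), in 6 of 6 pairs. RPL23AA had 61.1, 59.9 and 54.7 CPM in the embryos of Col-0 and 36.2, 34.3 and 33.4 CPM in those of the mutant, and 45.04, 47.2 and 42.6 CPM in the seed coats of Col-0 and 36.1, 32.2 and 35.3 CPM in those of the mutant. For S9, a protein of the small subunit's body, AT5G15200 held 50.1, 53.4 and 56.9% in Col-0 embryo and 42.98, 45.5 and 48.4% in Col-0 seed coat, and 56.2, 55.4 and 57.3% and 52.2, 51.5 and 51.9% in the mutant. Its ratio to AT5G39850 fell by 0.36 (adjusted p = 0.0279, exact permutation test), again in 6 of 6 pairs.

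Other ratios that passed were those of AT1G22780 (PFL, S18, 0.30) and AT1G34030 (S18, -0.29), AT5G35530 (0.26) and AT3G53870 (-0.15) for S3, AT3G13580 (0.51) and AT2G44120 (-0.29) for L7, AT3G53430 (L12, 0.29), and AT1G18540 (0.17) and AT1G74060 (-0.09) for L6. Adjusted p-values of these 9 were 0.0279 to 0.0418 by the exact permutation test. Ratios within L3, L4, L5, L7a, L8, L10, L10a, L18, S3a, S5, S6 and S13 did not pass. For RPS5A over RPS5B the log2 ratio moved by 0.79 in Col-0 and 0.01 in the mutant.

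**Figure D5:**
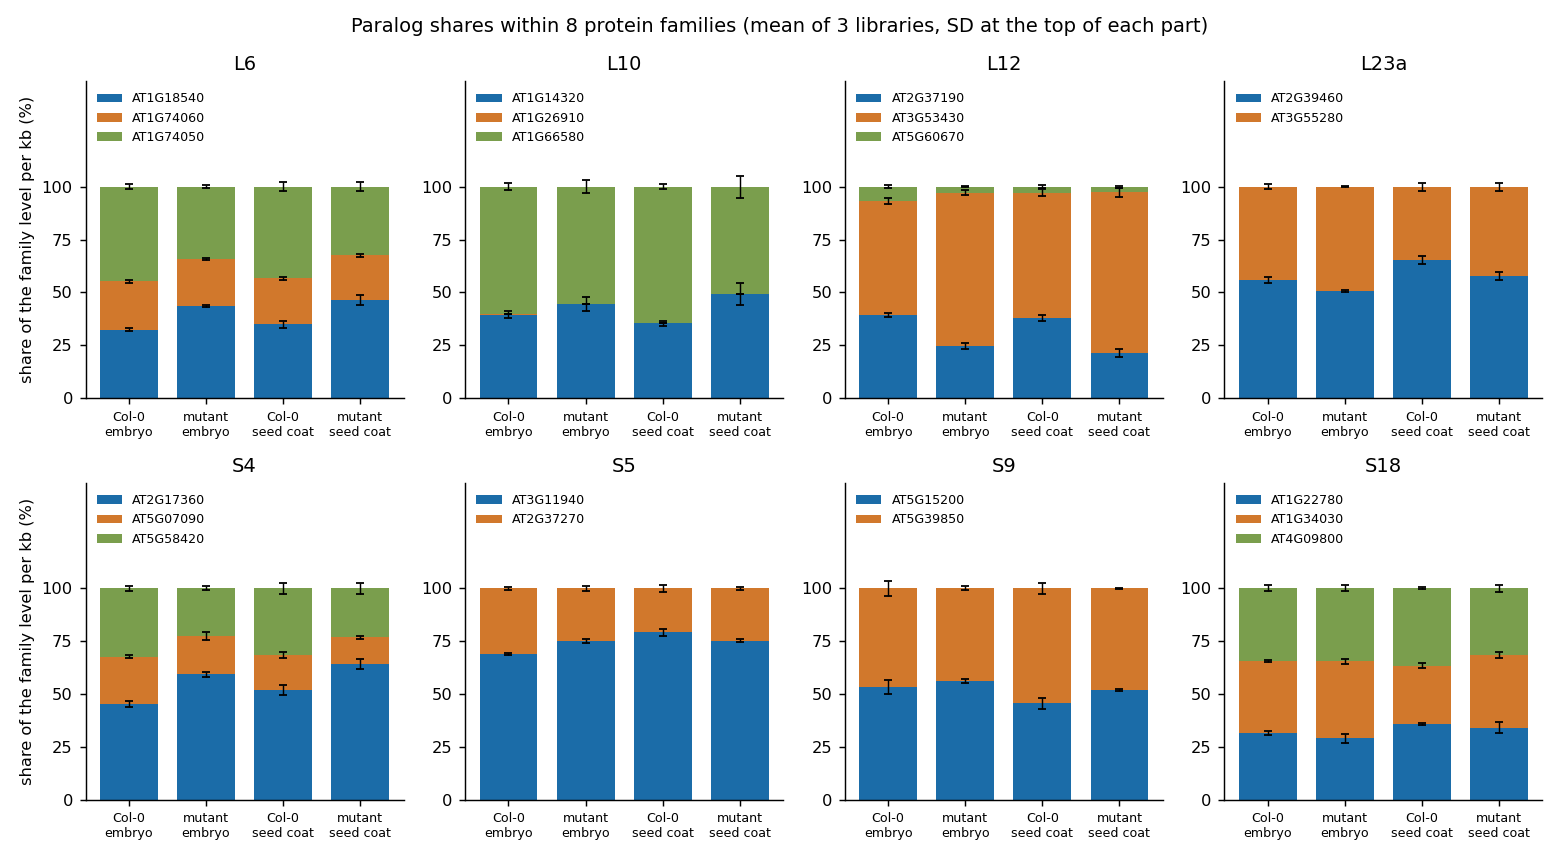
Share of each listed paralog in the summed level per kb of its family, for 8 families in the 4 groups (mean of 3 libraries; bars at the top of each part are SD). AT1G18540 has a larger part of L6 and AT3G53430 of L12 in the mutant, AT5G07090 has a smaller part of S4 in the seed coat, and RPL10B (AT1G26910) is too small to be seen in L10.

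In 5 families the leading paralog, the one with the highest mean per kb, was not the same in all 4 groups. For L6, AT1G74050 led in Col-0, with 44.8 ± 1.203% of the family level in embryo and 43.3 ± 2.26% in seed coat, and AT1G18540 led in the mutant, with 43.5 ± 0.505% and 46.4 ± 2.31%. In Col-0, AT1G18540 held 32.3 ± 0.7497% and 34.8 ± 1.54%, below all its mutant libraries. AT1G74050 had 96.8, 95.8 and 96.3 CPM in the embryos of Col-0 and 60.7, 53.1 and 54.99 CPM in those of the mutant. It had 91.5, 89.2 and 92.8 CPM in the seed coats of Col-0 and 54.4, 48.03 and 64.7 CPM in those of the mutant. The third L6 gene, AT1G74060, had 69.9, 64.6 and 62 CPM in the embryos of Col-0 and 50.5, 45.7 and 49.2 CPM in those of the mutant, and 61.96, 64.8 and 56.95 CPM in the seed coats of Col-0 and 49.8, 41.6 and 52.5 CPM in those of the mutant. Its share lay between 21.1% and 22.9% in the 4 groups. The proteins of AT1G74050 and AT1G74060 are 98.7% identical, and AT1G18540 is 90.6% and 91.4% identical to them, by translation of the TAIR10.1 annotation.

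S13 also had another leading gene in the mutant. RPS13A (AT4G00100) held 52.4 ± 1.21% in the embryo of Col-0, 47.95 ± 1.24% in that of the mutant, and 50.8 ± 2.87% and 47.9 ± 3.46% in the seed coat, where the libraries of the genotypes overlap. Its levels were 85.03, 78.3 and 77.99 CPM in the embryos of Col-0 and 48.5, 47.2 and 47.3 CPM in those of the mutant, and 62.3, 67.3 and 56.2 CPM in the seed coats of Col-0 and 39.98, 35.6 and 48.05 CPM in those of the mutant. Its exons overlap those of AT4G00090 on the same strand. AT3G60770 had 68.6, 68.5 and 68.6 CPM in the embryos of Col-0 and 50.9, 49.6 and 45.6 CPM in those of the mutant. It had 52.6, 58.1 and 58.5 CPM in the seed coats of Col-0 and 37.6, 42.9 and 45.7 CPM in those of the mutant. The 2 proteins are 99.3% identical.

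In S18, whose 3 genes code for identical proteins, RPS18C (AT4G09800) led in Col-0 and AT1G34030 in the mutant, although the shares of the 3 genes in each group lay within 27.7% to 36.5%. RPS18C had 45.3, 40.6 and 39.2 CPM in the embryos of Col-0 and 30.96, 27.9 and 29.7 CPM in those of the mutant, and 39.7, 41.5 and 39.05 CPM in the seed coats of Col-0 and 26.6, 23.4 and 25.1 CPM in those of the mutant. For AT1G34030 the values were 40.6, 40.2 and 38.4 CPM in the embryos of Col-0 and 30.4, 29.4 and 29.9 CPM in those of the mutant, and 27.7, 31.9 and 27.8 CPM in the seed coats of Col-0 and 26.2, 24.9 and 26.6 CPM in those of the mutant. PFL (AT1G22780), named for the pointed first leaves of its mutant, had 37.4, 37.9 and 36.4 CPM in the embryos of Col-0 and 26.2, 25.1 and 21.4 CPM in those of the mutant, and 37.9, 39.2 and 37.3 CPM in the seed coats of Col-0 and 26.01, 22.4 and 30.1 CPM in those of the mutant. In Col-0, AT1G34030 held 34.1 ± 0.481% in embryo and 27.7 ± 1.08% in seed coat, beside 34.3 ± 1.43% in mutant seed coat.

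S9 and L5 were the other 2 families. For S9, AT5G39850 led in Col-0 seed coat alone, with 54.4 ± 2.73%. Its values were 80.6, 71.5 and 66.8 CPM in the embryos of Col-0 and 40.2, 41.6 and 40.1 CPM in those of the mutant, and 79.1, 77.8 and 67.5 CPM in the seed coats of Col-0 and 41.2, 32.9 and 43.7 CPM in those of the mutant. Those of AT5G15200 were 106, 107 and 115 CPM in the embryos of Col-0 and 67.2, 67.3 and 70.3 CPM in those of the mutant, and 77.8, 84.6 and 82.7 CPM in the seed coats of Col-0 and 58.9, 45.5 and 61.5 CPM in those of the mutant. For L5, which binds a small ribosomal RNA before joining the large subunit, RPL5B (AT5G39740) and ATL5 (AT3G25520) each held 48.2% to 51.8% in every group. RPL5B had 139, 135 and 126 CPM in the embryos of Col-0 and 88.05, 77.8 and 79.4 CPM in those of the mutant, and 93.5, 109.7 and 100.1 CPM in the seed coats of Col-0 and 68.01, 55.96 and 69.6 CPM in those of the mutant. ATL5 had 137, 141 and 139.9 CPM in the embryos of Col-0 and 83.5, 78.2 and 81.5 CPM in those of the mutant, and 100.2, 111 and 103 CPM in the seed coats of Col-0 and 74.2, 59.2 and 74.3 CPM in those of the mutant. RPL5B had the larger share in 3 of 3 mutant embryo libraries.

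In L10, RPL10C held 60.1 ± 1.55% of the family level in the Col-0 embryo and 55.5 ± 3.17% in that of the mutant. Of the seed coat level it held 64.6 ± 1.04% in Col-0 and 50.7 ± 5.22% in the mutant, where it was level with SAC52 (AT1G14320, RPL10A). SAC52, a known suppressor locus of a stem-growth mutant, stood at -0.37 and -0.42 in the mutant. RPL10C codes for a protein 94.1% identical to SAC52.

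Genes that act with the ribosome were counted in lists that were drawn up with earlier results known. Beside them, 21.4% of all genes were lower and 25.4% higher in mutant embryo. In mutant seed coat the shares were 23.5% and 24.8%, and in Col-0 seed coat against embryo 22.2% and 24.4%. Of 147 tested other cytosolic ribosomal protein genes, 97 were lower and 2 higher in mutant embryo (median -0.48), 78 lower and 5 higher in mutant seed coat (median -0.35), and 67 lower and 2 higher in Col-0 seed coat against embryo. Among 35 ribosome biogenesis factors, 30 were lower and 1 higher in mutant embryo, 29 lower and 0 higher in mutant seed coat, and 25 lower and 2 higher in Col-0 seed coat against embryo. FIB2 (AT4G25630), which codes for a fibrillarin that methylates ribosomal RNA, had 33.99 ± 1.45 CPM in embryos of Col-0 and 2.59 ± 0.707 CPM in those of the mutant, a log2 of -3.70 (adjusted p = 4.79e-07). In the seed coat it had 9.11 ± 2.96 and 0.732 ± 0.465 CPM, a log2 of -3.65 (adjusted p = 4.81e-06). NUC-L2 (AT3G18610), a nucleolin gene, rose in mutant embryo by 1.14 (adjusted p = 0.0157).

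Of 34 tested translation factors, 19 were lower and 1 higher in mutant embryo and 21 lower and 2 higher in mutant seed coat, and 8 were higher and 5 lower in Col-0 seed coat against embryo. ELF5A-3 (AT1G69410), an elongation factor gene, rose in mutant embryo (0.59, adjusted p = 9.89e-05) and was higher in Col-0 seed coat than in embryo (0.93, adjusted p = 2.71e-06). The 24 plastid ribosomal protein genes had 7 lower and 3 higher in mutant embryo and 7 lower and 8 higher in mutant seed coat. In Col-0 seed coat 13 of them were lower and 0 higher. Of 5 genes of the TOR pathway and its S6 kinases, 4 were higher in mutant embryo, among them S6K2 (AT3G08720, 1.15, adjusted p = 1.68e-05), a kinase of ribosomal protein S6. In that list 2 were higher and 1 lower in mutant seed coat.

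The 5 genes outside the cytosolic ribosome whose log2 CPM followed the mean of the tested members most closely over the 12 libraries were CARA (AT3G27740, carbamoyl phosphate synthetase of arginine and pyrimidine synthesis; r = 0.99), TCP-1 (AT3G20050, a chaperonin subunit; r = 0.99), AT3G14390 (a decarboxylase; r = 0.99), NAP57 (AT3G57150, which modifies ribosomal RNA and is also on the list of biogenesis factors; r = 0.99) and emb1138 (AT5G26742, a DEAD box helicase; r = 0.99). NAP57 had 152 ± 6.56 CPM in the embryo of Col-0 and 73.3 ± 5.69 CPM in that of the mutant, and 111 ± 3.499 CPM and 58.5 ± 9.94 CPM in the seed coat (SD, n = 3). The order of the groups, Col-0 embryo highest and mutant seed coat lowest, was that of the members. Genes picked for following the members over these libraries share that order through the choice, so nothing is read from it.

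By promoter class, the median log2 of mutant over Col-0 in the embryo (the contrast that chose the members) was -0.68 for the 23 members with both motifs, -0.62 for the 24 with site II alone, -0.62 for the 5 tested with the telo box alone and -0.76 for the 5 with neither. In the seed coat the medians were -0.62, -0.47, -0.68 and -0.59.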

How the data were processed

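Poly(A) RNA of 12 dissected seed samples was sequenced from stranded libraries, per the labels' protocols. The deposited table gives counts of reads per gene and equals the reverse-strand column of the authors' per-library STAR files, which was checked. Per the submitters' processing notes, bcl2fastq 2.19, fastp 0.12.4 and STAR 2.7.9a were used with TAIR10. The sources used here do not say whether duplicates were removed by the molecular identifiers in the adaptors; intervals and floors cover counting error only.

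Genes were kept by filterByExpr (minimum count 10, minimum total 15; 16238 of 32833), scaled by TMM and fitted as 4 groups in 1 model by edgeR's quasi-likelihood test (edgeR 4.0.16, R 4.3.3), with Benjamini-Hochberg adjustment over all genes and calls at an adjusted p under 0.05. The 4 summary entries of the table were left out. Exon lengths, coordinates and sequences came from RefSeq TAIR10.1, which names the same loci; no coordinate was read from the deposited files. Paralog shares use CPM per kb of exon. The workflow and the permutation test were tested on simulated data.

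Members and gene lists were chosen with earlier results of these data known. Library values are given for the 2 highest members per subunit, members not lower in the mutant, the 4 largest decreases per tissue at 5 CPM or more, families that change their leading paralog, the 4 smallest p-values each way between the tissues of Col-0, the 4 paralog ratios with the smallest p (ties by size), members called for the difference of effects, and members without enough reads.

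To see whether replicate numbers pair the libraries, each library's deviation from its group mean was correlated with that of the other tissue. For the same number, r was 0.401, 0.456 and 0.274 for Col-0, and 0.403, 0.507 and 0.162 for the mutant. Same-numbered libraries of a genotype were therefore taken as pairs in the blocked fit between tissues and in the sign-flip tests. The main fit and the permutation tests within genotypes did not use the pairs. No label states the pairing, and mutant embryo 3 correlated more with seed coat 1 than with its own number. Between genotypes the same-numbered libraries correlated at -0.467 to -0.036. Reads on the strand opposite to the members made up 0.159% to 0.499% of their strand-assigned reads. Alternatives were RLE factors, total reads, TMM without ribosomal protein genes, testing every gene with a read, counts of both strands, DESeq2 1.42.0, 2-group fits, a replicate block and leaving out each library.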

Additional observations from a re-analysis of the deposited data

Results flagged for a closer look

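By the interaction test of edgeR, the mutant effect differed between seed coat and embryo for 4 of 57 tested members (adjusted p under 0.05). Of the members 5.26% were higher and 1.75% lower, beside 2.02% and 3.72% over all genes tested, so nothing is read from the count. The contrast is the difference of the mutant effects on which the members were chosen, so the calls are a description of these members. The effect was higher in the seed coat by 0.73 on the log2 scale for RPS5B (AT2G37270), by 0.98 for AT5G22440 (L10a) and by 1.48 for AT5G60670 (L12). RPL10C (AT1G66580) had a difference of -0.62. Without some single libraries, AT5G22440, AT5G60670 and RPL10C were no longer called, as given above. AT5G60670 had 2.03 ± 0.771 CPM in Col-0 seed coat and 1.21 ± 0.277 CPM in mutant seed coat (SD, n = 3), so its change there rests on few reads.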

How the results depend on the processing

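Under total gene reads alone, the median log2 of the members moved to -1.03 and -0.88 for the mutant in embryo and seed coat. For seed coat against embryo it moved to -0.82 in Col-0 and -0.63 in the mutant. Between the tissues 56 and 54 members were lower, against 52.9% and 50.3% of all genes. For the difference of effects 0 were lower, against 470 of 16238 genes. RPL10C (AT1G66580), AT1G18540, AT5G35530 and RPS5A (AT3G11940) then stood at -0.27, -0.39, -0.26 and -0.39 in Col-0 seed coat against embryo, with their direction reversed by the shift of all genes. No low-count filter gave 11 lower in the mutant's tissue comparison. The replicate block gave 2 higher in Col-0 seed coat, against 30.4% of all genes, and 8 higher for the difference, against 5.14%. Over the same pairs, the sign-flip test gave 0 of 39 paralog ratios called. Its smallest possible p is 0.03125, so a call after adjustment needed many ratios at that floor. DESeq2 gave 5 higher for the difference. With the replicate number as a block across genotypes, which share only a number, no count for the mutant changed by over 1.5 times. Leaving out 1 library in turn gave 7 to 24 lower in the mutant's tissue comparison, 0 to 1 lower and 1 to 5 higher for the difference, and 8 to 14 paralog ratios called. Medians then ranged from -0.65 to -0.45 for mutant seed coat, from -0.27 to -0.11 for the mutant's tissues and from 0.045 to 0.24 for the difference. The shares of all genes called are not given for the fits without the filter, by DESeq2 or without 1 library. Those member counts therefore have no background beside them. Without the 100 most abundant genes the shares of reads were 1.06%, 0.587%, 0.735% and 0.453%. Causes of these changes beyond the scaling were not tested. The other 299 values of counts, medians and shares stayed within 1.5 times or the spread between libraries. Depth left AT5G59240 untested.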
